A study of Mus musculus with 12 samples.

Results

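The clock output factors are transcription factors that the circadian clock drives and that carry its rhythm to other genes. Of 9 listed genes, all 9 had a probe set with 1 gene symbol among the 22180 genes measured: Bhlhe41, Bhlhe40, Dbp, Tef, Hlf, Nfil3, Nr1d1, Nr1d2 and Rora. The choice went by gene symbol in the platform annotation. Each gene was represented by its probe set of highest mean over the arrays, which left out 1 further probe set of Tef. Liver RNA of male C57BL6 mice was measured with 1 Affymetrix array per sample, 12 arrays in all. The groups of 3 arrays were a high-fat diet with MSX, a high-fat control, a low-fat diet with MSX and a low-fat control. MSX is a food grade, phenol-enriched extract of maple syrup, mixed into the feed at 0.5% by weight. Fat gave 45% of the energy in the high-fat diet and 10% in the low-fat diet. All mice, controls included, were fed freely for 12 weeks, starting at an age of 6 weeks and ending at 18 weeks. Each group held 3 arrays labelled as biological replicates. The sources used here do not give the hour of tissue collection or the feeding state at that time.

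In mammals a loop of activators and repressors keeps time in nearly every cell. The activators encoded by Arntl and Clock bind E-boxes, short DNA motifs, and switch on the Per and Cry genes, whose products then repress those same activators. Bhlhe40 and Bhlhe41 (also called Dec1 and Dec2) encode repressors that compete at E-boxes. Dbp, Tef and Hlf encode the PAR bZIP activators of D-box motifs, where the repressor encoded by Nfil3 competes with them. Nr1d1 and Nr1d2 encode the REV-ERB repressors, and Rora encodes an activator that binds the same ROR elements, among others in Arntl. In liver, the levels of most of these transcripts depend strongly on the hour of the day and on the time of feeding.

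The stretches of promoter below show which members carry these motifs close to their start, as background to the roles just described. They come from RefSeq on build GRCm38.p6, where 8 of the 9 members had an entry, with 9 entries in all because Tef had a pair. Each entry runs from 250 bases before the transcription start to 50 after it. Capitals mark a motif. The E-box searched was CACGTG, the D-box was TTATGTAA or TTACGTAA, and the core of the ROR element was AGGTCA, each on both strands and with no overlap between the motifs found.
Bhlhe41, chr6:145865421-145865670, minus strand: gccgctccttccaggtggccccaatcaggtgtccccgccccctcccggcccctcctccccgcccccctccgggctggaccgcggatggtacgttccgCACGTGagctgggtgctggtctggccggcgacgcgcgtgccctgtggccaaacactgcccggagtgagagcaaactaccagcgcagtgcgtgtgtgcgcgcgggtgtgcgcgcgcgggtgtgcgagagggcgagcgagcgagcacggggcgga
Tef, promoter 1, chr15:81802519-81802578, plus strand: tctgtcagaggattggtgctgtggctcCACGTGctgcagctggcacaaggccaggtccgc
Tef, promoter 2, chr15:81811249-81811308, plus strand: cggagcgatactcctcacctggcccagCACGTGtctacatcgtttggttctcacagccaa
Nr1d2, chr14:18239151-18239210, minus strand: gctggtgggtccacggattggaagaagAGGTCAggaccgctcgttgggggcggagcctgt
Nfil3, chr13:52981040-52981099, minus strand: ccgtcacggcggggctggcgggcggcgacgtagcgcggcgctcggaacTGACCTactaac

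The E-box of Bhlhe41 lay at bases −153 to −148 before its start. An E-box was found in 3 of the 9 entries, which belong to 2 of the 8 members with an entry, Bhlhe41 and Tef. It was found in 7.15% of all 32851 promoters of the same length. The ROR element core was found in 2 of the 9 entries, that of Nfil3 on the opposite strand, and in 16.3% of all promoters. The D-box was found in 0 of the 9 entries and in 1.06% of all promoters. A match describes these letters only.

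Values are log2 probe set summaries as the authors deposited them, so that a difference of 1 is a doubling. Array medians over all probe sets lay between 4.68 and 4.75, and any pair of arrays correlated at 0.973 to 0.984. Differences were tested with limma in 1 fit to all arrays, with p-values adjusted over all 22180 genes, and a gene was called at an adjusted p under 0.05. The file carries no detection calls. All 9 members had a mean above 5.10, the median of the gene means, which served as the limit for dim genes in an alternative. The control arrays of Bhlhe41 lay between 5.15 and 5.56, little above that limit. A piece of liver holds several cell types, and fewer cells of a type cannot be told apart from less RNA per cell.

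Bhlhe41 was the 1 member called in any comparison, on the high-fat diet and for the average of both diets. Its log2 values were 6.48, 6.43 and 6.18 in high-fat MSX livers, against 5.39, 5.22 and 5.15 in high-fat control livers. On the low-fat diet they were 6.15, 6.30 and 5.80 in MSX livers, against 5.41, 5.33 and 5.56 in control livers. Every array with extract lay above every array without it, whichever the diet. Bhlhe41 averaged 6.36 ± 0.16 in high-fat MSX livers and 5.25 ± 0.12 in high-fat control livers (SD, n = 3 each), and it rose by 1.11 on the log2 scale, a 2.16-fold change (SE 0.15, adjusted p = 0.0149). It averaged 6.08 ± 0.26 in low-fat MSX livers and 5.43 ± 0.12 in low-fat control livers (SD, n = 3 each), and the log2 fold change of 0.65 was not called (SE 0.15, adjusted p = 0.144). Averaged over both diets the extract effect was 0.88, a 1.84-fold rise (SE 0.10, adjusted p = 0.00198). By that p it ranked 10 of the 22180 genes. The extract effect was larger by 0.46 on the high-fat than on the low-fat diet (SE 0.21), and this difference did not pass the test (adjusted p = 0.955, unadjusted p = 0.0419).

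Of all genes, 0.0361% were called for the extract under high-fat feeding and 0.261% for the average extract effect. For the average effect, the call of Bhlhe41 held with each of the 12 arrays left out in turn, with adjusted p up to 0.0118. For the high-fat diet alone it was lost without high-fat control replicate 2 (adjusted p = 0.0624) or 3 (0.0909) and without high-fat MSX replicate 1 (0.0813) or 2 (0.115). The log2 fold change stayed between 1.05 and 1.20 with any of the 12 arrays left out.

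Bhlhe40, the paralogue of Bhlhe41, had the next smallest p among the members for the average extract effect. Its values were 9.81, 9.60 and 9.78 in high-fat MSX livers, against 9.47, 9.48 and 9.28 in high-fat control livers. They were 9.47, 9.85 and 9.41 in low-fat MSX livers, against 9.09, 9.13 and 8.90 in low-fat control livers. Within each diet the MSX arrays lay above the control arrays with no overlap. The log2 fold change with extract was 0.32 on the high-fat diet (SE 0.14, adjusted p = 0.687) and 0.53 on the low-fat diet (SE 0.14, adjusted p = 0.243). The average was 0.43 (SE 0.10, adjusted p = 0.101), which was not called. It was called where dim genes were left out (adjusted p = 0.0356) and where the variance prior followed intensity (adjusted p = 0.0293). In the exact two-sided permutation of extract and control labels within each diet, Bhlhe41 and Bhlhe40 both had p = 0.005, the smallest that its 400 arrangements can give. Any gene whose groups do not overlap on both diets, in the same direction, gets this p, and 1.09% of all genes were higher in that way. The permutation thus restates the lack of overlap given above. It was run on 9 members, chosen with earlier results of these data known, and its p-values are not adjusted.

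**Figure D1:**
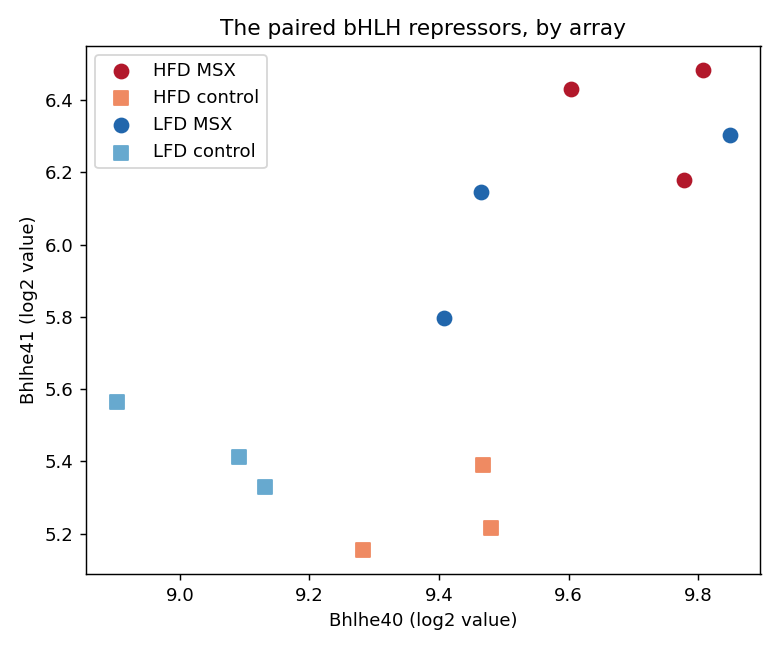
Log2 value of Bhlhe41 (vertical) against that of Bhlhe40 (horizontal) in each of the 12 arrays, with circles for MSX and squares for control and 1 colour per group. All MSX arrays lie at 5.80 or more for Bhlhe41 and all control arrays at 5.56 or less, while for Bhlhe40 the high-fat controls reach into the range of the low-fat MSX arrays.

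The diet comparison was also made for this pair of repressors. Bhlhe40 averaged 9.41 ± 0.11 in high-fat control livers and 9.04 ± 0.12 in low-fat control livers (SD, n = 3 each), which is 0.37 higher on the log2 scale with no overlap (SE 0.14, adjusted p = 0.630). Bhlhe41 differed by −0.18 in the same comparison (SE 0.15, adjusted p = 0.873). Neither was called. With extract, the diet effect was 0.16 for Bhlhe40 and 0.28 for Bhlhe41 (adjusted p = 0.999 for both).

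None of the 3 PAR bZIP activators was called in any comparison. Dbp, whose transcript is among the most rhythmic in liver, had values of 10.41, 10.37 and 10.27 in high-fat MSX livers, against 10.13, 10.10 and 9.77 in high-fat control livers. On the low-fat diet it had 10.51, 10.54 and 9.97 in MSX livers, against 9.77, 10.03 and 10.13 in control livers. The groups were apart on the high-fat diet and overlapped on the low-fat diet through low-fat MSX replicate 3. The log2 fold changes were 0.35 on the high-fat diet (SE 0.16, adjusted p = 0.716) and 0.36 on the low-fat diet (SE 0.16, adjusted p = 0.613), and the exact p for the average was 0.02.

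Tef averaged 7.28 ± 0.16 in high-fat MSX livers and 7.23 ± 0.13 in high-fat control livers (SD, n = 3 each). On the low-fat diet it averaged 7.52 ± 0.13 in MSX livers and 7.20 ± 0.16 in control livers (SD, n = 3 each), which is 0.33 higher with no overlap (SE 0.13, adjusted p = 0.553). The unused probe set of Tef, of mean 5.30, ran between 4.95 and 5.78 over the arrays. On the low-fat diet it was at 5.58, 5.46 and 4.96 in MSX livers, against 5.43, 5.31 and 4.95 in control livers. These groups overlapped, so the lack of overlap for Tef holds for the used probe set only. With both probe sets averaged, the high-fat extract effect of Tef was −0.01 in place of 0.05. Hlf lay between 7.88 and 8.35 in all arrays. Its log2 fold changes with extract were −0.02 on the high-fat and 0.0036 on the low-fat diet (SE 0.13 for both).

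Nfil3, the repressor that shares the D-box with the PAR bZIP factors, had values of 6.58, 6.65 and 6.57 in high-fat MSX livers, against 6.52, 7.23 and 7.01 in high-fat control livers. It had 6.43, 6.44 and 6.92 in low-fat MSX livers, against 6.82, 6.997 and 6.57 in low-fat control livers. The groups overlapped on both diets, and the log2 fold changes of −0.32 and −0.20 (SE 0.19 for both) had adjusted p of 0.785 on the high-fat and 0.832 on the low-fat diet.

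**Figure D2:**
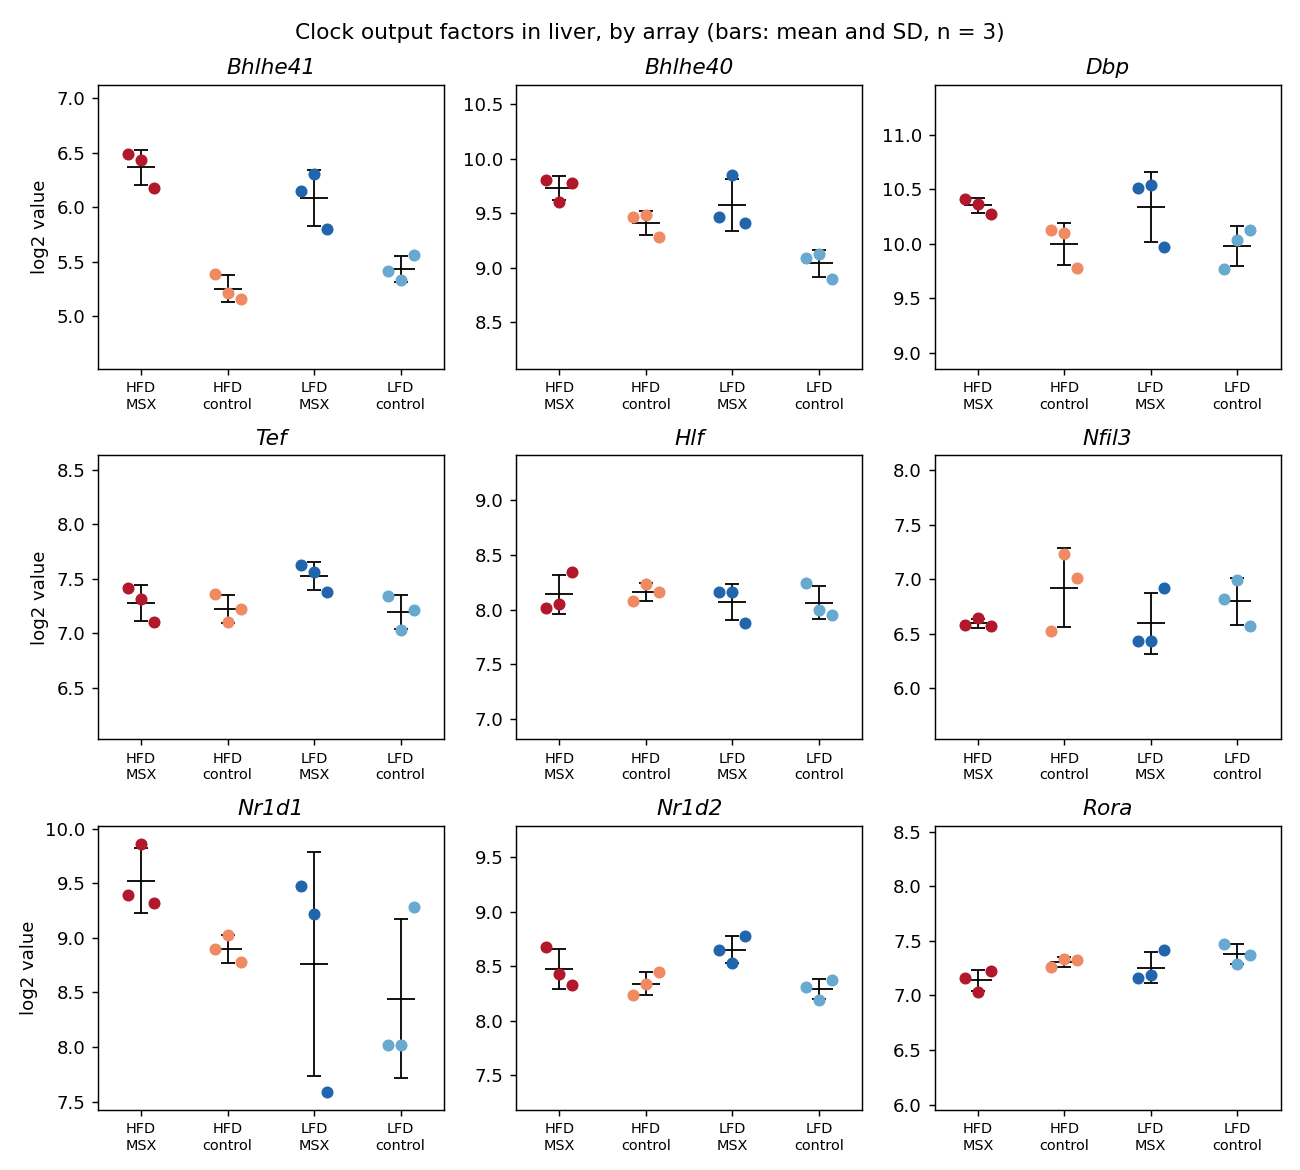
Log2 value of each member (1 panel per gene, all panels spanning equally many log2 units) in the 4 groups, with points for arrays and bars for the mean and SD of 3 arrays. Bhlhe41 separates MSX from control on both diets, and Nr1d1 shows the widest spread inside the low-fat groups.

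Nr1d1, which encodes REV-ERB alpha, varied more between arrays than any other member. It had values of 9.39, 9.86 and 9.32 in high-fat MSX livers, against 8.90, 9.03 and 8.77 in high-fat control livers. It had 9.48, 9.22 and 7.59 in low-fat MSX livers, against 8.02, 8.02 and 9.28 in low-fat control livers. The high-fat groups were apart and narrow, while each low-fat group held arrays more than 1 log2 unit from each other. The SD was 1.02 in low-fat MSX livers and 0.73 in low-fat control livers, against 0.29 in high-fat MSX livers and 0.13 in high-fat control livers. The pooled SD within groups was 0.65, larger than in 99.6% of all genes. The log2 fold change with extract was 0.62 on the high-fat diet (SE 0.42, adjusted p = 0.832) and 0.32 on the low-fat diet (SE 0.42, adjusted p = 0.889). The low-fat value turned on single arrays and was not called without any of them. It was −0.036 without low-fat MSX replicate 1, 0.092 without replicate 2 and 0.91 without replicate 3 of that group. It was 0.11 without low-fat control replicate 1 or 2 and 0.74 without low-fat control replicate 3.

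Low-fat MSX replicate 3, the array lowest in Nr1d1, stood at the edge of its group for every other member too. In a group of 3 arrays, each array but the middle one is at an edge, and the share over all genes was not counted. Within low-fat MSX it had the lowest values of Bhlhe41, Bhlhe40, Dbp, Tef and Hlf and the highest of Nfil3, Nr1d2 and Rora. Cry1, a repressor of the core loop, was also highest there, at 6.57 against 5.86 and 6.01 in the other arrays of the group. Of the other core clock genes described below, Per1, Per3, Cry2 and Ciart were lowest there. Arntl, Clock and Npas2 had the middle value of the group there. Without that array the low-fat extract effect was 0.79 for Bhlhe41 (adjusted p = 0.0667), 0.62 for Bhlhe40 (adjusted p = 0.232) and 0.55 for Dbp (adjusted p = 0.313). Since the array left out was the lowest MSX array for these genes, larger effects follow from the choice.

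Nr1d2, the REV-ERB beta gene, averaged 8.48 ± 0.18 in high-fat MSX livers and 8.34 ± 0.10 in high-fat control livers (SD, n = 3 each). On the low-fat diet its values were 8.65, 8.53 and 8.78 in MSX livers, against 8.31, 8.19 and 8.37 in control livers. That difference of 0.36 came without overlap and was not called (SE 0.12, adjusted p = 0.453). Rora, the activator at ROR elements, was at 7.16, 7.03 and 7.22 in high-fat MSX livers, against 7.26, 7.34 and 7.32 in high-fat control livers. Its log2 fold change there was −0.17 without overlap (SE 0.11, adjusted p = 0.829), and −0.12 with overlap on the low-fat diet (SE 0.11, adjusted p = 0.829). The exact p for the average extract effect was 0.025 for Nr1d2, 0.04 for Rora, 0.08 for Tef, 0.105 for Nfil3, 0.195 for Nr1d1 and 0.925 for Hlf.

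Counted over the 9 members, limma called 1 higher and 0 lower with extract under high-fat feeding, where 0.0135% of all genes were called higher. An unadjusted p under 0.05 was reached by 2 members, against 6.99% of all genes. On the low-fat diet limma called 0 of 9, against 0.158% of all genes, and 5 members had an unadjusted p under 0.05, against 8.05% of all genes. Those 5 were Bhlhe41, Bhlhe40, Nr1d2, Tef and Dbp. For the average extract effect limma called 1 of 9, and 4 members (Bhlhe41, Bhlhe40, Dbp and Nr1d2) had an unadjusted p under 0.05, against 9.66% of all genes. The MSX arrays lay above the control arrays with no overlap for 4 of 9 members on the high-fat diet, against 6.7% of all genes, and for 4 of 9 on the low-fat diet, against 7.13%. They lay below for 1 member, Rora, on the high-fat diet, against 5.51% of all genes, and for 0 members on the low-fat diet, against 6.73%. Bhlhe41 and Bhlhe40 were the 2 members apart on both diets, against 1.09% of all genes. The median log2 fold change of the 9 was 0.14 on the high-fat and 0.33 on the low-fat diet, and over all genes it was 0.0060 and −0.0014. For the difference of both extract effects limma called 0 of 9, and 0% of all genes. Here 1 member, Bhlhe41, had an unadjusted p under 0.05, against 5.09% of all genes.

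**Figure D3:**
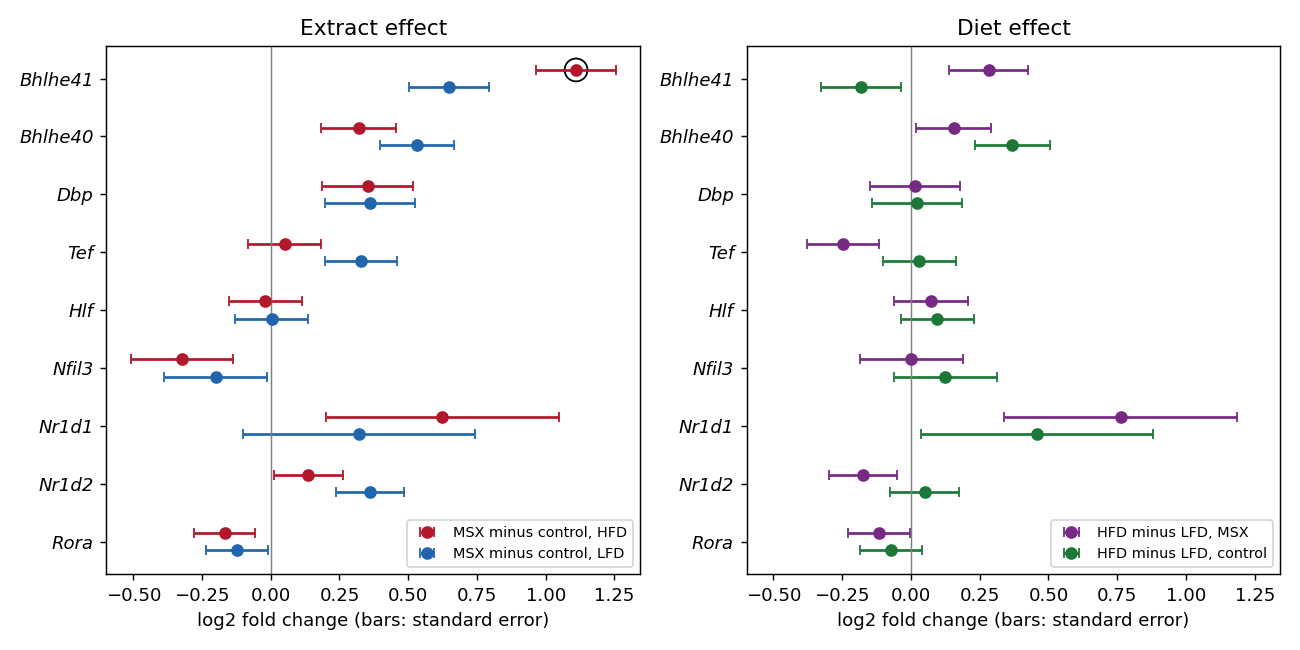
Log2 fold change of each member with its standard error, for MSX minus control on each diet (left) and high-fat minus low-fat diet with and without extract (right), where a black ring marks an adjusted p under 0.05. The ring stands at 1.11 for Bhlhe41 on the high-fat diet, and no diet effect carries one.

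The diet left these factors without a call. Without extract, limma called 0 of 9 members for the high-fat against the low-fat diet, against 0.018% of all genes, and Bhlhe40 alone had an unadjusted p under 0.05, against 6.78% of all genes. It was also the 1 member whose high-fat arrays all lay above the low-fat ones, against 5.29% of all genes. With extract it called 0 of 9 and 0% of all genes, and 0 members had an unadjusted p under 0.05, against 4.56% of all genes. The average diet effect was largest in size for Nr1d1, at 0.61 (SE 0.30, adjusted p = 0.853), followed by Bhlhe40 at 0.26 (SE 0.10, adjusted p = 0.723). The other 7 lay between −0.11 and 0.08. For this average limma called 0 of 9 members and 0.0225% of all genes, and 1 member, Bhlhe40, had an unadjusted p under 0.05, against 5.94% of all genes.

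In the core clock loop, 12 of 16 listed genes were measured, and limma called 0 of them in any of the 7 comparisons. For the average extract effect 4 of the 12 had an unadjusted p under 0.05, against 9.66% of all genes, and the median was −0.05. Arntl, which encodes the activator BMAL1 and is repressed by the REV-ERB proteins, was at 4.68, 5.23 and 5.06 in low-fat MSX livers, against 5.43, 5.43 and 5.77 in low-fat control livers. These groups were apart, and the log2 fold change was −0.55 (SE 0.19, adjusted p = 0.445). On the high-fat diet it was at 5.28, 5.42 and 5.09 in MSX livers, against 5.77, 5.70 and 5.15 in control livers, which overlapped (log2 fold change −0.28, adjusted p = 0.832). Its average was −0.41 (SE 0.13, adjusted p = 0.298).

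For Cry1 the average extract effect was 0.34 (SE 0.16, adjusted p = 0.510). Per3, a period gene, had 0.25 (SE 0.11, adjusted p = 0.484). Clock, the partner of Arntl, had −0.11, Npas2, a stand-in for Clock, had −0.09, Per1 had −0.11 and Cry2 had 0.11 (adjusted p between 0.766 and 0.880). Ciart, a repressor of the core loop that was named after its values were seen, had the largest average in size of the 12, at 0.53 (SE 0.23, adjusted p = 0.475). Its extract effect was 0.34 under high-fat feeding (adjusted p = 0.903) and 0.73 under low-fat feeding (adjusted p = 0.595), with overlapping groups on both diets.

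**Figure D4:**
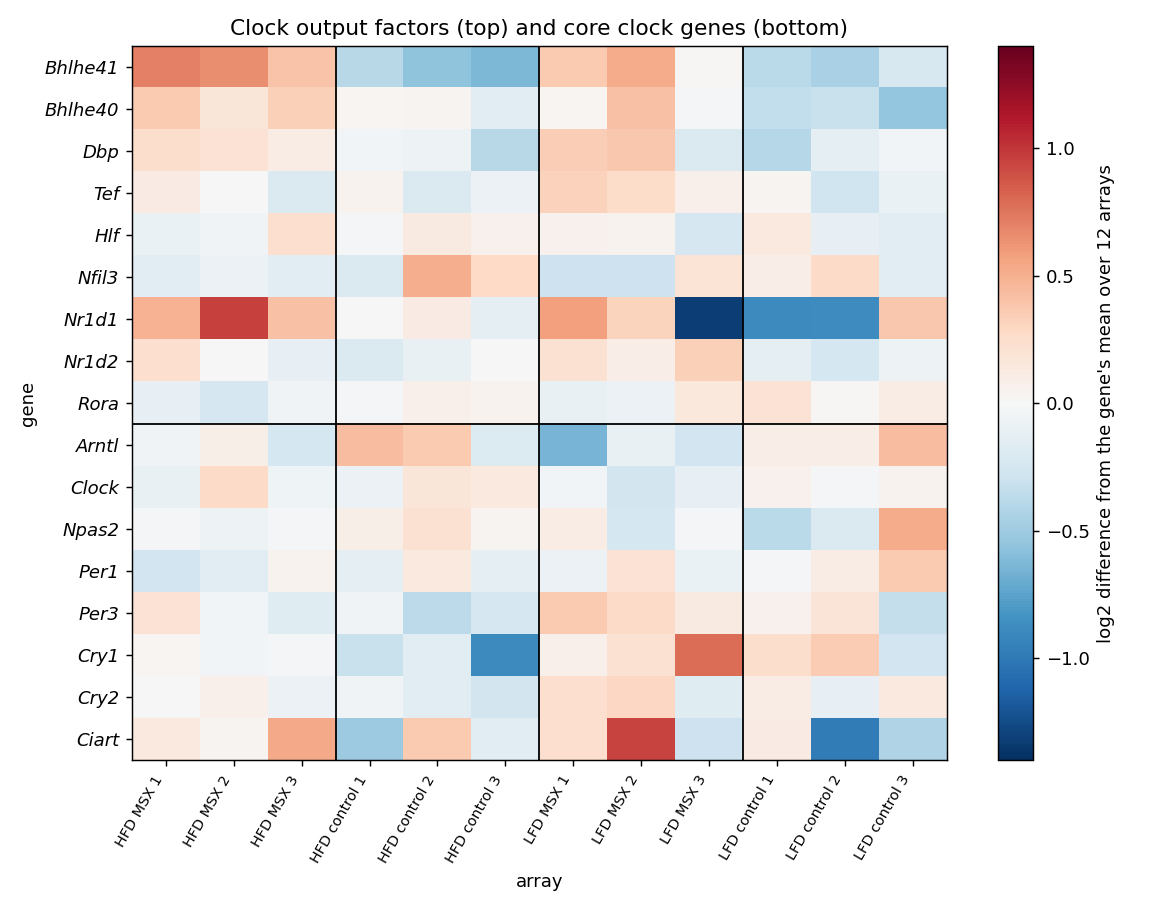
Difference of each array from the mean of the gene over the 12 arrays, in log2 units, for the 9 clock output factors (top) and 8 core clock genes (bottom), with arrays grouped as high-fat MSX, high-fat control, low-fat MSX and low-fat control. Bhlhe41 is above its mean in all MSX arrays and below it in all control arrays. Nr1d1 falls to 7.59 in low-fat MSX replicate 3. In that array Cry1 is highest, while Arntl, Clock and Npas2 have the middle value of their group.

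Genes that mouse studies link to these factors were counted from lists written from general knowledge. These lists were chosen with earlier results of these data known, so their counts are a description and not independent of those results. Of 9 measured genes linked to the PAR bZIP factors, 0 were called higher and 1 was called lower for the average extract effect, against 0.261% of all genes called. Called or not, 2 of the 9 lay above 0 and 7 below, with a median of −0.41. An unadjusted p under 0.05 was reached by 6 of the 9, against 9.66% of all genes. The one called was Acot2, a mitochondrial acyl-CoA thioesterase, which was lower by 1.22 (SE 0.18, adjusted p = 0.00925). It averaged 9.23 ± 0.17 in high-fat MSX livers and 10.18 ± 0.16 in high-fat control livers, and 8.78 ± 0.70 in low-fat MSX livers and 10.27 ± 0.03 in low-fat control livers (SD, n = 3 each). Acot4, a peroxisomal relative, had −0.46 (SE 0.12, adjusted p = 0.144).

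Of 9 measured genes linked to the REV-ERB proteins, limma called 0 for the average extract effect and 3 had an unadjusted p under 0.05, set against the same 0.261% and 9.66% of all genes as for the lists after it. This list shares Arntl, Npas2, Cry1 and Clock with the core clock loop, and Nfil3 is itself a member. Arntl and Cry1 were thus counted at an unadjusted p under 0.05 in both lists. Insig2, a retention factor for sterol sensing, had −0.54 (SE 0.14, adjusted p = 0.158) and came before Arntl by p. Of 12 rhythmic liver genes, limma called 0 and 6 had an unadjusted p under 0.05. Upp2, a uridine phosphorylase, had 0.48 without overlap on either diet (SE 0.10, adjusted p = 0.0635). Tfrc, the transferrin receptor, had −0.42 without overlap on either diet (SE 0.10, adjusted p = 0.107). Of 8 measured corepressors and partners, limma called 0 and 0 had an unadjusted p under 0.05, with Prkaa2, a catalytic subunit of AMP-activated kinase, at 0.21 and Sin3a, a corepressor scaffold, at 0.15 (adjusted p = 0.549 and 0.573).

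The pattern of Bhlhe41 over the 12 arrays was set beside that of 19376 other named genes by Pearson correlation, as a description. All points share the same arrays and the same extract contrast. The median correlation was 0.0089, and 5% of the genes lay above 0.60. The highest was Gba2, a glucosylceramidase, at 0.95, followed by F11, coagulation factor XI, at 0.92 and Nox4, an NADPH oxidase, at 0.91. Cd99l2, a cell surface protein, and Pank4, a relative of the pantothenate kinases, were also at 0.91. The lowest were Gdpd3, a phosphodiesterase, at −0.89, Slc27a1, a fatty acid transport protein, at −0.88 and G0s2, an inhibitor of lipolysis, at −0.86. Since Bhlhe41 separates MSX from control arrays, an extract effect in genes chosen this way follows from the choice and is not given as a result.

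Liver markers were present throughout: the summed level of 6 hepatocyte markers lay between 15.48 and 15.53 on the log2 scale in high-fat MSX livers and between 15.40 and 15.53 in high-fat control livers. It lay between 15.49 and 15.61 in low-fat MSX livers and between 15.47 and 15.54 in low-fat control livers. The 6 stellate and matrix markers had a summed level of 10.80 to 11.21 in high-fat MSX livers and 11.15 to 11.86 in high-fat control livers, highest in high-fat control replicate 1. Under high-fat feeding 5 of these 6 markers were lower on average with extract (median −0.43), of which 0 were called. Of the 6, 3 had an unadjusted p under 0.05, against 6.99% of all genes. For the difference of extract effects all 6 were below 0 (median −0.70), and 3 had an unadjusted p under 0.05, against 5.09% of all genes. All 5 measured lymphocyte markers and 3 of 4 cholangiocyte markers were also lower on average with extract under high-fat feeding, with 0 called. An unadjusted p under 0.05 was reached by 0 of the 5 and 1 of the 4, against the same 6.99% of all genes. All 6 hepatocyte markers were higher on average with extract on that diet (median 0.07), with 0 called and 1 at an unadjusted p under 0.05. Under low-fat feeding all 6 stellate and matrix markers (median 0.18) and all 5 endothelial markers (median 0.23) were higher on average with extract, with 0 called. An unadjusted p under 0.05 was reached by 1 of the 6 and 0 of the 5, against 8.05% of all genes. Bhlhe41 was at 5.39 in high-fat control replicate 1, the highest of its group, and without that array the rise of Bhlhe41 was 1.18 (adjusted p = 0.0399). Since the array left out was the highest control array, a larger rise follows from the choice. The 6 Kupffer and macrophage markers had a summed level of 10.20 to 10.57 in low-fat MSX livers and 9.90 to 10.49 in low-fat control livers. Here 5 of the 6 were above 0 for the extract effect, against 2 of 6 under high-fat feeding, and 0 were called on either diet. An unadjusted p under 0.05 was reached by 1 of the 6 under low-fat and 0 of the 6 under high-fat feeding. Of all genes, 0.0361% were called for the extract under high-fat and 0.158% under low-fat feeding. For all these markers, their part in the values of the members was not tested.

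A pair of members overlap another protein-coding gene in the GRCm38.p6 gene table. Thra, a thyroid hormone receptor gene, overlaps Nr1d1, and its probe set had an extract effect of 0.05 on the high-fat and 0.09 on the low-fat diet. Sphk2, a sphingosine kinase gene, overlaps Dbp, and its probe set had −0.19 and −0.27, of opposite sign to Dbp. None of these was called (adjusted p between 0.620 and 0.984).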

How the data were processed

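The authors deposited 1 log2 value per probe set and array, and the submitters' processing notes name the Transcriptome Analysis Console. The sources used here give neither its version nor how probes were summarized and normalized. Values were used as deposited. Of 41345 probe sets, 23521 had 1 gene symbol in the platform annotation, 1814 had several and 16010 had none listed. Probe sets with 1 symbol were reduced to 22180 genes, each by its brightest probe set. A fit of 4 group means to all 12 arrays used R 4.3.3 and limma 3.58.1 (linear model, moderated by empirical Bayes, two-sided, 8 residual and 5.18 prior degrees of freedom), with Benjamini-Hochberg adjustment over all genes in each of 7 comparisons. Fold changes are the first-named group minus the second. The procedure was tested on simulated data. Precision is limited by having 3 arrays per group. The labels give no batch. Alternatives are given in the closing section.

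The members and lists were chosen with earlier results of these data known. Genes outside the 9 members were named by rule: the main core clock genes (Per2 was not analysed here), the called genes and the pair of lowest p in each other list, and the 5 genes most and 3 least correlated with Bhlhe41, without provisional symbols. Lists were counted, not tested as sets.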

Additional observations from a re-analysis of the deposited data

How the results depend on the processing

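Direction and call of Bhlhe41 for the average extract effect held under each alternative that could give it a value. Its rise on the high-fat diet lost its call where only the arrays of the groups compared were fitted (1.11, adjusted p = 0.108) and kept it under the other 6 alternatives. Deviations from the group means correlated between −0.13 and 0.11 for same-numbered arrays and between −0.095 and 0.16 for different-numbered arrays. Whether same-numbered arrays shared a batch was not tested. With the replicate block the count of called genes was 5 for the extract under high-fat feeding and 20 under low-fat feeding, and Bhlhe41 had adjusted p = 0.0361 and 0.185.

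Of 22180 genes, 8 were called for the extract on the high-fat diet, 35 on the low-fat diet, 58 for the average extract effect, 4 for the diet without extract and 5 for the average diet effect. Without dim genes these were 19, 71, 173, 11 and 11, and with an intensity trend 31, 76, 143, 15 and 10. With only the groups compared, the first pair was 2 and 10. The mean of all probe sets gave 23 on the low-fat diet, and array weights gave 92 for the average extract effect. With arrays left out in turn the counts ran from 2 to 10, 6 to 28, 34 to 63, 1 to 7 and 1 to 7, and from 0 to 1 for the difference of extract effects and for the diet with extract.

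Signs turned only in member values that were not called, and the cause was not tested. The mean of probe sets gave Tef −0.010 for the extract under high-fat feeding. Quantile normalization gave Hlf −0.048 for the extract under low-fat feeding, Tef −0.0043 for the diet without extract, and Dbp −0.018 and Nfil3 −0.0093 for the diet with extract. Array weights gave Nr1d1 −0.010 for the difference of extract effects, Tef −0.021 for the diet without extract, and Dbp −0.039 and Hlf −0.012 for the diet with extract.

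Some ranges with 1 array left out crossed 0. For the extract under high-fat feeding they were −0.12 to 0.042 for Hlf and −0.021 to 0.14 for Tef. Under low-fat feeding they were −0.051 to 0.099 for Hlf and −0.036 to 0.91 for Nr1d1, and for the average −0.060 to 0.039 for Hlf. For the difference they were −0.19 to 0.095 for Dbp, −0.13 to 0.038 for Hlf, −0.32 to 0.039 for Nfil3, −0.28 to 0.66 for Nr1d1 and −0.093 to 0.034 for Rora. For the diet without extract they were −0.081 to 0.13 for Dbp, −0.032 to 0.32 for Nfil3, −0.0032 to 0.10 for Nr1d2 and −0.052 to 0.11 for Tef. With extract they were −0.17 to 0.11 for Dbp, −0.031 to 0.13 for Hlf and −0.080 to 0.16 for Nfil3. For the average diet effect they were −0.020 to 0.11 for Bhlhe41, −0.075 to 0.074 for Dbp and −0.015 to 0.16 for Nfil3.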
